A study of Rattus norvegicus with 6 samples.

Results

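Of 176698 merged regions of histone lactylation in rat tenocytes, 6478 (3.67%) carried a called peak in 5 of 6 CUT&Tag libraries and lacked one in the remaining library. They were found by pooling the 6 deposited peak lists, merging peaks that overlapped by at least 1 bp, and keeping the regions with a peak in exactly 5 lists. Another 7268 regions (4.11%) had a peak in all 6 lists and 8293 (4.69%) in 4. The members fall into 6 classes, named here by the library without a peak. The members were chosen by these peak calls, so class sizes and peak strengths are given as descriptions with no test.

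The libraries came from wild-type rat tenocytes, the fibroblast-like cells of tendon, kept in culture. For each of 3 marks there was 1 library of cells given 20 mM lactate and 1 library of untreated control cells: H3K9la lactate and H3K9la control, H4K8la lactate and H4K8la control, H4K16la lactate and H4K16la control. Whether the libraries came from separate cultures is not given in the labels, and the protocol field names lactate for every library, so the conditions rest on the sample titles and treatment entries. With 1 library per group no difference has a replicate check, and every interval below is a Wilson 95% interval that covers counting error only. The lists held 46597, 42787 and 62563 peaks for H3K9la, H4K8la and H4K16la lactate, and 61850, 61347 and 40681 for the matching controls. Read totals were not used here, and depth was read from the genome-wide background, the pileup that the caller expected away from enriched stretches, which was 1.88, 1.55 and 2.84 with lactate and 2.17, 1.32 and 1.53 in control. Tenocyte marker genes were not analysed here, because regions could be given by position only (build rn7, counted from 1).

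Lactylation is the transfer of a lactyl group, derived from lactate, to a lysine of a histone tail. H3K9la lies on the tail of histone H3, and H4K8la and H4K16la lie on that of histone H4, where the same lysines can also carry acetyl groups. Lactylation has been associated with active promoters and enhancers in other cell types, and its level can follow the supply of lactate. CUT&Tag finds a mark by directing a transposase to antibody-bound chromatin, and a peak is a stretch where the released fragments pile up above the local background. A region without a peak is one where the signal did not pass the caller's threshold, which is not the same as a region without the mark.

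H4K8la lactate was the library most often without a peak, at 1603 members (24.7%, 23.7 to 25.8). H4K16la control followed with 1500 (23.2%, 22.1 to 24.2), H3K9la lactate with 1452 (22.4%, 21.4 to 23.4) and H4K16la lactate with 1048 (16.2%, 15.3 to 17.1). The control libraries of H3K9la and H4K8la were seldom the one without a peak, with 454 members (7.01%, 6.41 to 7.66) and 421 (6.50%, 5.92 to 7.13).

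Set against each other within a mark, the lactate library lacked the peak more often than control for H3K9la and H4K8la, and less often for H4K16la. The log2 ratio of members lacking lactate to members lacking control was 1.68 (1.53 to 1.83) for H3K9la and 1.93 (1.77 to 2.08) for H4K8la. For H4K16la it was −0.52 (−0.63 to −0.40). The rule used these same calls. Among all regions with a peak of the mark in either condition, 28.6% were lactate only and 46.2% control only for H3K9la. For H4K8la 28.3% were lactate only and 49.9% control only, and for H4K16la 52.4% were lactate only and 26.8% control only. The shortest lists, H4K16la control (40681 peaks), H4K8la lactate (42787 peaks) and H3K9la lactate (46597 peaks), had the largest classes, with 1500, 1603 and 1452 members. H4K16la lactate had the longest list (62563 peaks) and the highest background, and it lacked a peak at 1048 members. H3K9la control (61850 peaks) lacked a peak at 454 and H4K8la control (61347 peaks) at 421. The part of list length in the class sizes was not tested.

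The same comparison can be made over a common base, the regions where all 5 other lists had a peak. The H3K9la lactate peak was lacking at 16.7% of them (15.9 to 17.4), the H4K8la lactate peak at 18.1% (17.3 to 18.9) and the H4K16la lactate peak at 12.6% (11.9 to 13.3). Among the controls the share was 5.88% (5.38 to 6.43) for H3K9la, 5.48% (4.99 to 6.01) for H4K8la and 17.1% (16.3 to 17.9) for H4K16la. When each list was cut to its 40681 strongest peaks, the length of the shortest list, these shares were 15.3%, 14.9% and 16.2% with lactate and 8.23%, 6.50% and 13.4% in control. H4K16la then changed direction, with 1217 members lacking lactate and 969 lacking control, a log2 ratio of 0.33. Another alternative, chosen after seeing the data, scaled summits and local backgrounds to the lowest genome-wide background. Peaks with a scaled −log10 p of at least 4 were kept, which left 22237 for H4K16la lactate, the shortest list, and 35655 for its control. The H4K16la ratio was then 1.43, and 26.1% of the regions lacked the H4K16la lactate peak. The part of list length in this value was not tested.

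**Figure D1:**
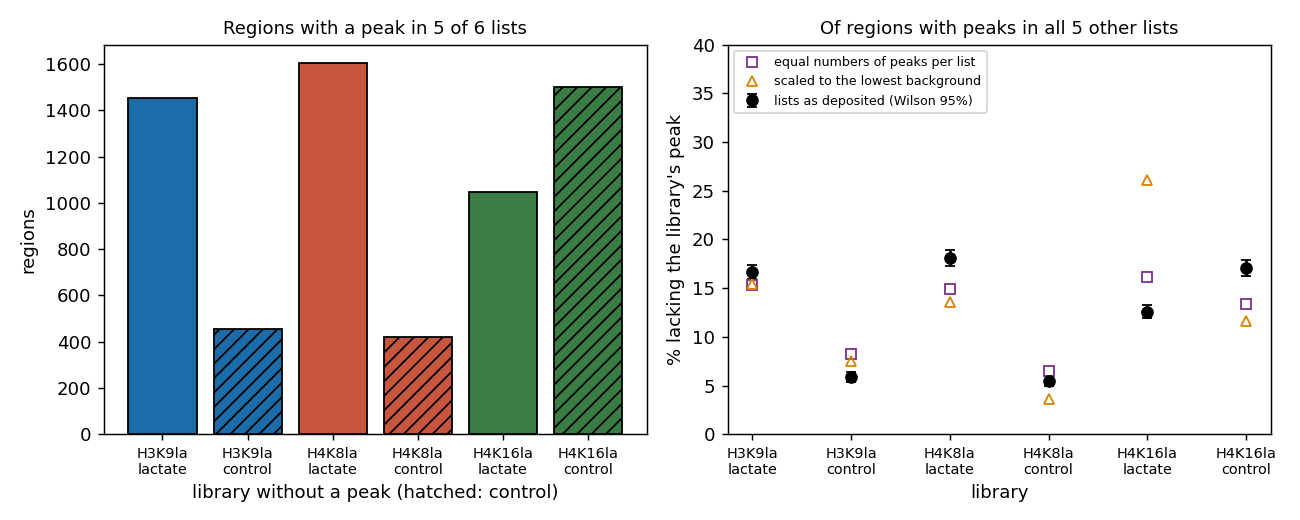
The left panel gives the number of regions with a peak in 5 of 6 lists by the library without a peak (hatched bars are control libraries). The right panel gives, for each library, the percentage of regions with peaks in all 5 other lists that lack its peak: for the lists as deposited (black, bars are Wilson 95% intervals, counting error only), for equal numbers of peaks per list (squares) and with summits scaled to the lowest background (triangles). For H4K16la the deposited lists put lactate (12.6%) below control (17.1%), and both other settings put lactate above control. Scaling left 22237 H4K16la lactate peaks, against 35655 for its control.

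The members were weaker than regions called in all 6 libraries and somewhat stronger than those called in 4. Strength was taken as the −log10 q that the authors' peak caller gave a peak, and a region was summarised by the lowest value among its lists. The median of this lowest −log10 q was 2.83 in members (quartiles 2.28 and 3.61), against 3.67 (2.75 and 5.16) in regions of 6 lists and 2.64 (2.15 and 3.33) in regions of 4. All 5 peaks reached a −log10 q of at least 5 in 439 members (6.78%), whereas all 6 peaks did so in 1936 regions of 6 lists (26.6%). All 4 peaks did so in 317 regions of 4 lists (3.82%). The bar for 5 peaks is easier to meet than that for 6 and harder than that for 4. Only 6 members had all 5 peaks at 10 or above, 2 of them lacking H3K9la lactate and 4 lacking H4K8la lactate. Members were a median of 1102 bp wide, against 1233 bp in regions of 6 lists and 968 bp in regions of 4.

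Just inside the caller's threshold, 102 members had a lowest −log10 q under 1.5, as did 34 regions of 6 lists and 175 of 4. The lowest value of any member was 1.31, at the edge of the lists (1.30 or 1.31, a q of 0.05). One such region, on chromosome 15 from 32721821 to 32722421, lacked H4K8la lactate. Its −log10 q was 2.94 in H3K9la lactate, 3.12 in H4K16la lactate, 4.77 in H3K9la control, 2.55 in H4K8la control and 1.31 in H4K16la control. A slightly stricter threshold would have moved it to the regions of 4 lists.

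Among the classes, the median lowest −log10 q ran from 2.69 (lacking H4K8la control) to 3.02 (lacking H3K9la lactate). By lowest fold over local background the order was another, with 3.34 where H4K8la control and 3.30 where H3K9la lactate was lacking. Regions lacking H3K9la lactate had the largest share with all 5 peaks at 5 or above (142 members, 9.78%). Those lacking H4K8la control had the smallest (18 members, 4.28%), with 4.48% (47) where H4K16la lactate was lacking and 5.00% (75) where H4K16la control was lacking. The remaining 2 classes lay at 8.37% (38, lacking H3K9la control) and 7.42% (119, lacking H4K8la lactate). Each class leaves out another library, so the lowest value is taken over another set of 5 libraries. In regions of 6 lists the median −log10 q was lowest in H3K9la lactate (5.42) and highest in H4K8la control (8.75). The part of the library left out in the order of the classes was not tested.

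The share of regions that lacked a peak fell as the other lists grew stronger, in every library. Where the lowest −log10 q of the 5 other lists was under 2, the H4K16la control peak was lacking at 39.1% of regions (35.1 to 43.3), the H4K8la lactate peak at 37.6% (33.5 to 41.9) and the H3K9la lactate peak at 33.5% (29.5 to 37.7). The H3K9la control and H4K8la control peaks were lacking at 13.7% (10.8 to 17.2) and 15.2% (12.2 to 18.8) there. Between 5 and 7.5 the share was 7.58% for H3K9la lactate (125 of 1649) and 6.84% for H4K8la lactate (106 of 1549). It was 2.98% for H4K16la lactate, 2.57% for H3K9la control, 1.14% for H4K8la control and 4.78% for H4K16la control in the same range. At 10 and above, H3K9la lactate lacked 2 of 384 regions (0.521%) and H4K8la lactate 4 of 297 (1.35%). The other 4 libraries lacked none, and the limits given for them are 3 counts of the total and not Wilson bounds: 0 of 258 for H4K16la lactate allows a share of up to 1.16%, 0 of 269 for H3K9la control up to 1.12%, 0 of 248 for H4K8la control up to 1.21% and 0 of 259 for H4K16la control up to 1.16%.

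**Figure D2:**
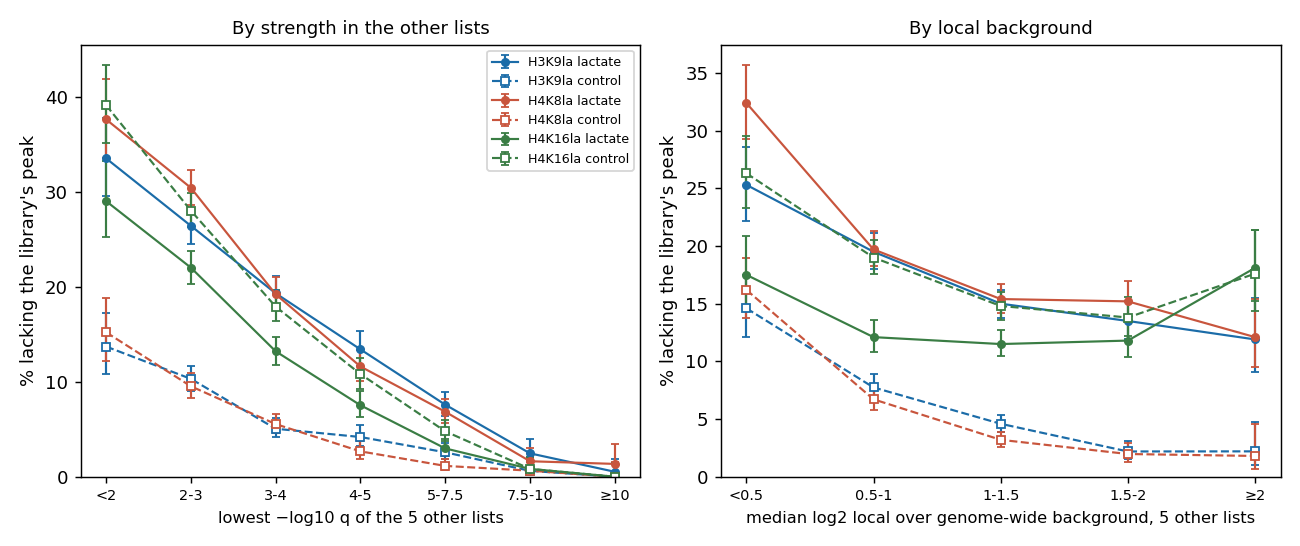
Percentage of regions with peaks in all 5 other lists that lack a library's peak, by the lowest −log10 q of the other 5 lists (left) and by their median log2 local over genome-wide background (right). Filled circles with solid lines are lactate libraries, open squares with dashed lines are controls, and bars are Wilson 95% intervals. The share falls with strength for all 6 libraries, and for both H4K16la libraries it is higher in the highest background bin than in the bin before it. In the lowest background bin it is 17.5% for H4K16la lactate and 26.3% for H4K16la control.

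The strongest members were those with the highest lowest −log10 q. In the class lacking H3K9la lactate the first lay on chromosome 19 from 21912774 to 21913366. Its −log10 q was 19.4 in H4K8la lactate, 19.5 in H4K16la lactate, 12 in H3K9la control, 15.6 in H4K8la control and 19.9 in H4K16la control. An H3K9la lactate peak lay 2161 bp from its edge. The region sits in high coverage: its local background was 5.56 to 9.75 times the genome-wide one in the 5 libraries, and the H3K9la control peak was its weakest. The second, on chromosome 4 from 79688209 to 79688973, lay in more ordinary coverage (1.99 to 2.88 times) and 31637 bp from an H3K9la lactate peak. There H3K9la control, at 17.9, was the strongest of the 5 libraries by −log10 q. The fold over local background ran from 5.69 to 6.93, the highest in H3K9la control. By summit pileup over background H3K9la control (18.0) was below H4K8la control (22.8), H4K16la control (18.3) and H4K8la lactate (18.1). It was above H4K16la lactate (14.1) on that scale.

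The class lacking H3K9la control was led by chromosome 1 from 231649688 to 231650632. Its −log10 q was 10.1 in H3K9la lactate, 9.52 in H4K8la lactate, 17.4 in H4K16la lactate, 8.30 in H4K8la control and 9.17 in H4K16la control, and the nearest H3K9la control peak lay 17094 bp away. By −log10 q all 3 lactate libraries stood above both controls, although those of H3K9la and H4K8la did so by little. By summit pileup over background they did not, with 11.2 in H3K9la lactate, 12.3 in H4K8la lactate and 12.7 in H4K16la lactate. The H4K8la and H4K16la controls were at 11.4 and 12.4 on that scale. The next member, on chromosome 11 from 5524896 to 5525990, had no H3K9la control peak within 135736 bp. Its H4K16la lactate peak reached 22.4, and the other 4 lay between 7.98 and 13.5. By summit pileup over background H4K8la control (16.7) was above H4K16la lactate (15.1), and the others were lower.

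Members lacking H4K8la lactate included the strongest of all classes. On chromosome 10 from 45855147 to 45856312 the −log10 q was 18.8 in H3K9la lactate, 16.3 in H4K16la lactate, 16.9 in H3K9la control, 14.4 in H4K8la control and 20.0 in H4K16la control. Its summit pileup, the stack of sequenced fragments or extended reads at the summit (which of these is not stated), was 44 in 3 of these libraries, 39 in H4K8la control and 46 in H4K16la control. Over each library's own background this was 23.4 in H3K9la lactate, 15.5 in H4K16la lactate, 20.3 in H3K9la control, 29.6 in H4K8la control and 30.0 in H4K16la control, so H4K16la lactate was the lowest on that scale. H4K8la lactate had no peak within 14237 bp. The second region was on chromosome 1 (79988451 to 79989124), with a lowest −log10 q of 13.7. The third was on chromosome 16 (18987621 to 18988206) with 11.3, and the fourth on chromosome 3 (114340676 to 114341299) with 10.3. H4K8la lactate peaks lay 22045, 22106 and 17218 bp from these regions.

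In the class lacking H4K8la control, the first region lay on chromosome 3 from 116333621 to 116334621. Its −log10 q was 8.44 in H3K9la lactate, 9.0 in H4K8la lactate, 12.9 in H4K16la lactate, 11.4 in H3K9la control and 10.9 in H4K16la control. Lactate and control values overlapped, and the nearest H4K8la control peak was 23802 bp away. The second, on chromosome 10 from 39891197 to 39892273, had an H4K8la control peak 1089 bp from its edge.

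For H4K16la lactate the leading region was on chromosome 5 from 60475053 to 60476261. Its −log10 q was 15.3 in H3K9la lactate, 9.70 in H4K8la lactate, 10.4 in H3K9la control, 23.2 in H4K8la control and 9.16 in H4K16la control. H4K8la control stood well above the rest, and the H4K16la control peak was the weakest by −log10 q. By summit pileup over background H3K9la control (12.9) was below H4K16la control (17.0). For H4K16la control it was on chromosome 11 from 67841332 to 67842225, where the −log10 q was 9.36 in H3K9la lactate, 10.1 in H4K8la lactate, 8.68 in H4K16la lactate, 13.9 in H3K9la control and 14.0 in H4K8la control. Here both controls stood above all 3 lactate libraries by −log10 q. By summit pileup over background H3K9la control (14.3) was below H4K8la lactate (14.9). The nearest peaks of the missing lists were 10811 and 29598 bp away.

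To compare libraries of different length, each peak was also given its percentile within its own list by −log10 q. In every class the median percentile of the 5 peaks lay between 63.2 and 80.1, whereas in regions of 6 lists the 6 medians lay between 83.5 and 89.8. In the class lacking H4K16la lactate the median percentile was 66.4 for H3K9la lactate and 69.7 for H4K8la lactate, and 76.3 and 79.4 for the controls of these marks. The controls of both marks also stood higher in the class lacking H4K16la control (69.1 and 65.9 with lactate, 74.9 and 74.7 in control) and in regions of 6 lists (83.5 and 85.9 with lactate, 87.1 and 89.8 in control). H4K16la control was at 65.5 where H4K16la lactate was lacking. In the class lacking H3K9la lactate, H4K8la control stood highest at 80.1 and the other 4 libraries lay between 71.9 and 74.5.

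By percentile, the other library of the same mark was the weakest of the 5 peaks at a minority of regions, though in most classes more often than an even share. If each of the 5 were equally likely to be lowest by percentile, the share would be 20%. Median percentiles also differed between libraries in regions of 6 lists (83.5 to 89.8), which this even share leaves out. The H3K9la control peak was lowest at 21.8% (19.8 to 24.0) of regions lacking H3K9la lactate, and the H4K8la control peak at 18.5% (16.7 to 20.5) of those lacking H4K8la lactate. Both intervals hold 20%. For regions lacking a control, the lactate peak of that mark was lowest at 26.9% (23.0 to 31.1) for H3K9la, 25.9% (21.9 to 30.3) for H4K8la and 23.3% (21.2 to 25.5) for H4K16la. Where H4K16la lactate was lacking, the H4K16la control peak was lowest at 26.5% (23.9 to 29.3), and the H3K9la lactate peak as often, at 27.7% (25.0 to 30.5). The intervals of these classes lie above 20%. Where H3K9la control or H4K8la control was lacking, no library was lowest more often than the same-mark one. Where H4K16la control was lacking, the H4K8la lactate peak was lowest at 24.7% (22.6 to 26.9), above the same-mark share. These shares depend on the scale used for strength. By summit pileup over background the H4K16la lactate peak was lowest at 67.5% of regions lacking H4K16la control. The H4K8la control peak was lowest at 3.62% of those lacking H4K8la lactate on that scale.

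**Figure D3:**
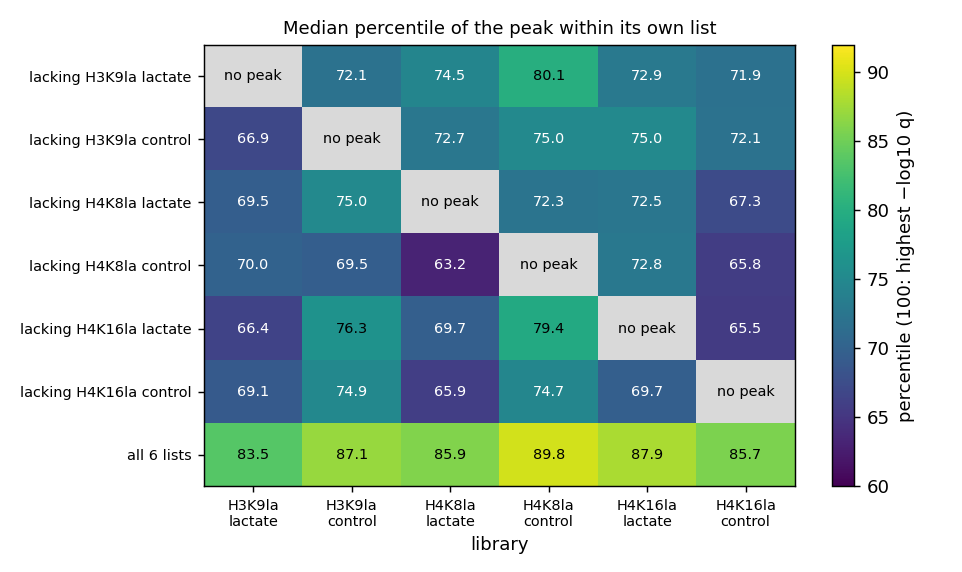
Median percentile of a peak within its own list (columns are libraries, 100 is the highest −log10 q of a list) in each class of regions and in regions of all 6 lists (bottom row). Class medians lie between 63.2 and 80.1, and those of regions in all 6 lists between 83.5 and 89.8.

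The nearest peak of the missing list was within 100 bp of the region's edge at 27 of 6478 members, within 500 bp at 123, within 1 kb at 232 (3.58%) and within 5 kb at 1059 (16.3%, 15.5 to 17.3). At 391 members it was more than 50 kb away. The median distance was 12319 bp for H3K9la lactate, 14897 bp for H4K8la lactate and 9945 bp for H4K16la lactate, and 10063 bp, 10372 bp and 13738 bp for their controls. The part of list length in these distances was not tested.

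Among members whose 5 peaks all reached a −log10 q of 5, the one farthest from the missing list lay on chromosome 14 from 46237356 to 46237777, and the nearest H3K9la control peak was 1855971 bp away. Its −log10 q was 17.4 in H3K9la lactate, 14.9 in H4K8la lactate, 15.4 in H4K16la lactate, 5.76 in H4K8la control and 8.22 in H4K16la control. All 3 lactate libraries stood above both controls by −log10 q. By summit pileup over background H4K16la lactate (10.2) was just below H4K16la control (10.4). The farthest for H3K9la lactate lay 182263 bp from such a peak, on chromosome 17 from 2755547 to 2756524, where H4K16la lactate reached 30.7 and the other 4 libraries 7.73 to 13.2.

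The signal to be expected in the missing library was estimated from the other 5. The median summit pileup over background of the 5 libraries was multiplied by the background of the missing library. It was then shifted by that library's usual offset at regions of 6 lists. At the median member this gave a pileup of 17 where H3K9la lactate was lacking, 16 for H4K8la lactate and 21.8 for H4K16la lactate. For the controls it gave 21, 18.4 and 17.7. The highest pileup that would have stayed uncalled, given the lowest p called in that list, was 10, 9 and 13 with lactate and 11, 9 and 10 in control. The median log2 ratio of this limit to the predicted pileup was −0.71, −0.78 and −0.72 for the lactate libraries, and −0.87, −0.99 and −0.81 for the controls. At regions of 6 lists, where the library was called, the log2 ratio of observed to predicted pileup had a 2.5th percentile of −0.74, −0.78 and −0.80 for the lactate libraries and −0.90, −0.97 and −0.86 for the controls. The limit fell below that percentile at 34.1% to 52.0% of the members of a class. At these, an uncalled signal would lie below nearly all of the scatter of called regions. At the other members, a signal within that scatter could have stayed uncalled. That scatter holds only regions called in the library, so its lower end is cut by the threshold. The comparison therefore cannot show whether the signal was lower in the missing library. The predicted pileup itself would have been called at 100% of the members of every class. This share was largely set in advance, because each prediction comes from 5 called peaks. The estimate takes the p threshold as the only reason for a missing call, and the predictions rest on called peaks only.

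Another measure was the lactate minus control difference of the marks that were called in both conditions. It is not independent of the rule, because these marks had to be called and a call rests on the same pileup and local background. It was taken as the log2 summit pileup over the library's genome-wide background. Where H3K9la lactate was lacking, the median difference of H4K8la was −0.55 (quartiles −0.86 and −0.23), against −0.38 (−0.72 and −0.08) where H3K9la control was lacking. H4K16la gave −0.58 (−0.89 and −0.31) and −0.53 (−0.80 and −0.19) in the same classes. Where H4K8la lactate was lacking, H3K9la gave −0.24 (−0.53 and 0.11), against −0.09 (−0.38 and 0.29) where H4K8la control was lacking. H4K16la gave −0.48 and −0.44 there. Where H4K16la lactate was lacking, H3K9la gave −0.34 (−0.59 and −0.06) and H4K8la −0.62 (−0.92 and −0.34). Where H4K16la control was lacking they gave −0.24 (−0.57 and 0.08) and −0.52 (−0.86 and −0.23). The direction depends on the scale. By percentile within the list, the median difference of H4K16la was positive, at 1.7 and 3.2 points where H3K9la lactate and control were lacking and 4.0 and 4.9 points where H4K8la lactate and control were lacking. That of H3K9la was 0.5 points where H4K8la control was lacking. By fold over local background, H3K9la gave 0.03 where the lactate peak and 0.06 where the control peak of either other mark was lacking. These comparisons share libraries, the quartile ranges overlap in every one of them, and no test was made.

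In counts on the pileup scale, H3K9la was lower with lactate at 830 of 1048 regions (79.2%) lacking H4K16la lactate, at 1048 of 1500 (69.9%) lacking H4K16la control, at 1085 of 1603 (67.7%) lacking H4K8la lactate and at 235 of 421 (55.8%) lacking H4K8la control. The share over all regions with both H3K9la peaks was 67.2%. H4K8la was lower with lactate at 86.4% of regions lacking H3K9la lactate and 77.8% of those lacking H3K9la control, and at 91.7% and 85.3% of those lacking H4K16la lactate and control, against 85.7% over all regions with both H4K8la peaks. For H4K16la the 4 shares lay between 85.9% and 92.4%, around its overall 88.9%. Of the 3 marks, H4K16la lay closest to its overall share.

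The difference between classes was larger in the local background than in the fold over it. Local background is the caller's expected coverage around the peak. Its log2 lactate minus control difference for H4K8la was −0.51 where H3K9la lactate was lacking and −0.35 where H3K9la control was lacking. For H3K9la it was −0.32 where H4K8la lactate was lacking and −0.14 where H4K8la control was lacking. By fold over local background the same classes differed by −0.01 for H4K8la and −0.03 for H3K9la.

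**Figure D4:**
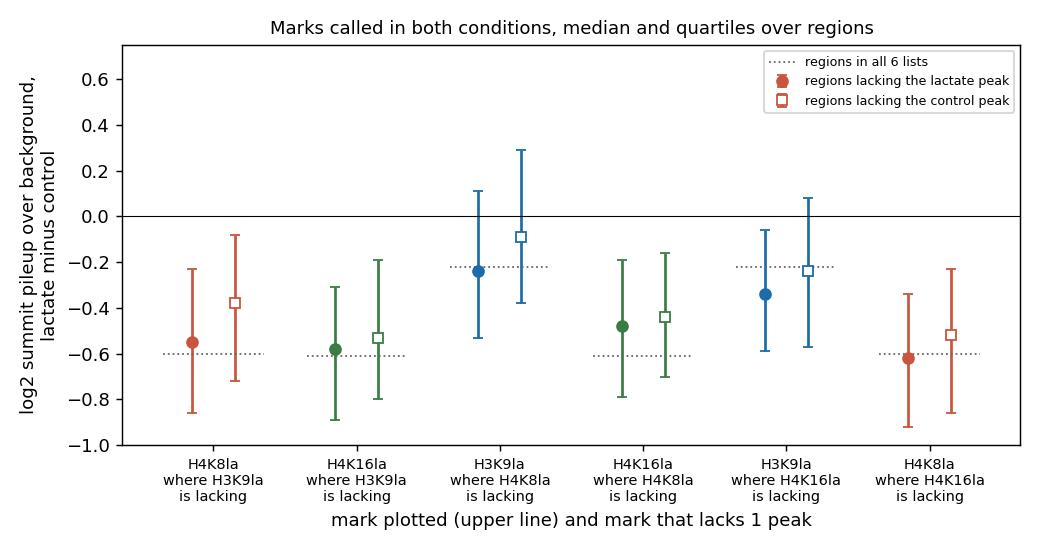
Lactate minus control difference in log2 summit pileup over background for the marks called in both conditions, in regions lacking the lactate peak (filled circles) or the control peak (open squares) of another mark. Points are medians, bars reach the quartiles over regions, and dotted lines are medians of the same mark in regions of all 6 lists. For H4K8la the median was −0.55 where H3K9la lactate was lacking and −0.38 where H3K9la control was lacking, with overlapping quartile ranges. By percentile within the list the H4K16la differences are positive, and by fold over local background those of H3K9la are.

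Coverage around the members, as read from the 5 called libraries, also differed between classes. The median local background over the genome-wide one, taken over the 5 libraries, was 2.36 where H4K16la lactate was lacking and 2.07 where H3K9la lactate was lacking, 2.02 for both H4K8la lactate and H4K16la control, 1.86 for H3K9la control and 1.70 for H4K8la control. It was 2.23 in regions of 6 lists, taken over all 6 libraries. Each class leaves out another library, so these values rest on different sets. In regions of 6 lists the median ratio was lowest in H4K16la lactate (1.84) and highest in H4K8la control (3.12). The part of the library left out in the class values was not tested. H4K16la lactate was lacking at 11.8% (10.4 to 13.4) of regions with a log2 local background between 1.5 and 2, and at 18.1% (15.2 to 21.4) of those at 2 or above. H4K16la control gave 13.8% (12.2 to 15.6) and 17.6% (14.4 to 21.4) in the same bins. The 2 intervals of H4K16la control overlap. For H3K9la lactate the shares were 13.5% and 11.9%, and for H4K8la lactate 15.2% and 12.1%. At a log2 local background below 0.5 the share was 17.5% for H4K16la lactate and 26.3% for H4K16la control. It was 25.3% for H3K9la lactate and 32.4% for H4K8la lactate in that bin. The H3K9la and H4K8la controls fell from 14.6% and 16.2% below 0.5 to 2.20% and 1.80% at 2 or above. Regions lacking H4K16la lactate were also the widest, at a median of 1214 bp, and most often held several peaks of a list (13.1%, against 9.42% of all members).

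The summits of the 5 libraries spanned a median of 409 bp within a member (quartiles 248 and 648), against the narrower 374 bp (229 and 596) for the 6 summits of regions in all lists. Regions of 4 lists had 365 bp (220 and 572). Merging overlapping peaks keeps these spans short by construction. By class the median span ran from 363 bp (lacking H4K8la lactate) to 474 bp (lacking H4K16la lactate).

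Members were spread over all autosomes and the X chromosome, and none lay on Y. They made up 3.21% (chromosome 19) to 4.64% (chromosome 12) of the regions of an autosome but 1.63% of those on X, where 80 of 4904 regions qualified. Of the X regions with a peak in 5 or 6 lists, 55.2% (47.0 to 63.0) were members, and the interval overlaps that of chromosome 18 (53.9%, 49.1 to 58.7). A region of 6 lists lay within 100 kb of 63.2% (62.0 to 64.4) of members, close to the 62.1% (61.1 to 63.2) of regions of 4 lists. It was 66.0% (64.9 to 67.1) for the regions of 6 lists and 48.0% (47.7 to 48.3) for regions with a peak in 1 list. Neighbouring members within 10 kb of each other lacked the same library in 70 of 272 cases (25.7%, 20.9 to 31.2), against 20.0% from the class sizes. Within 100 kb it was 546 of 2565 (21.3%, 19.7 to 22.9).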

How the data were processed

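Each library has its own peak list. The submitters' processing notes name build rn7 and the tools MACS2, deepTools, Bowtie2, cutadapt and FastQC. Their versions and settings, and any IgG control in peak calling, were not given in the sources used here. Columns deposited by the authors are positions and summit offsets, a score (10 times the −log10 q without decimals), a ratio (fold of summit pileup over local background), and the caller's −log10 p and −log10 q.

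Peaks overlapping by at least 1 bp were merged, and the peak of highest −log10 q stood for a list with several. Summit pileup and local background were recovered from fold and −log10 p, taking fold as (pileup + 1) over (background + 1) and p as the upper Poisson tail, within 0.002 of −log10 p. This reading is inferred from the values. It gave a whole pileup for every peak but 1, which was left out of values on pileup. The most frequent local background of a list was taken as its genome-wide background. The steps were checked on simulated peaks.

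The members, classes and alternatives were chosen with earlier results of these data known. Named regions are the 4 of highest lowest −log10 q per class, the weakest, and the farthest from the missing list with a lowest −log10 q of at least 5, of which the text gives some. No test between conditions was made. The gene, promoter and miRNA tables at hand describe assembly GRCr8, so genes and sequences were not analysed here. Python 3.11.15, numpy 2.4.6, pandas 2.3.3, scipy 1.17.1 and matplotlib 3.10.9 were used.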

Additional observations from a re-analysis of the deposited data

Results flagged for a closer look

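The log2 ratio of members lacking lactate to members lacking control ran in opposite directions between marks, at 1.68 for H3K9la and 1.93 for H4K8la and at −0.52 for H4K16la. With 1 library for each mark and condition, whether the marks differ was not tested. The H4K16la lactate library also had the highest background (2.84, against 1.53 in its control). With summits scaled to the lowest background the H4K16la ratio was 1.43, and its lactate list then held 22237 peaks against 35655 for control.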

How the results depend on the processing

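The number of members was 1985 with peaks of −log10 q of at least 5 and 317 with at least 10, and stayed within 1.5 times 6478 under the other settings. Shares are given in the order H3K9la lactate and control, H4K8la lactate and control, H4K16la lactate and control. With −log10 q of at least 5 they were 35.5%, 9.12%, 23.2%, 4.74%, 12.7% and 14.7%, and with at least 10 they were 47.6%, 11.4%, 20.2%, 4.73%, 7.89% and 8.2%. With equal numbers of peaks they were 20.9%, 10.4%, 20.3%, 8.06%, 22.5% and 17.9%. Scaled to the lowest background with a scaled −log10 p of at least 4, a setting chosen after seeing the data, they were 19.3%, 8.65%, 16.7%, 4.03%, 37.5% and 13.9%. The log2 ratio of members lacking lactate to members lacking control was 1.96 for H3K9la, 2.29 for H4K8la and −0.21 for H4K16la at −log10 q of at least 5, and 2.07, 2.09 and −0.06 at 10. It was 1.01, 1.33 and 0.33 with equal numbers and 1.16 for H3K9la and 1.43 for H4K16la when scaled, so H4K16la changed direction in both. Without members that had a peak of the missing list within 5 kb it was 2.09 for H4K8la. Overlap of at least 50%, merging across 500 bp, a width of at most 2 kb and autosomes moved neither shares nor ratios beyond their counting intervals.

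On other scales the class medians of strength, in the same order, were 5.43, 4.94, 5.12, 4.71, 5.17 and 5.04 as the mean −log10 q, and 3.30, 3.37, 3.27, 3.34, 3.23 and 3.20 as the lowest fold. The share in which the same-mark peak was lowest moved to 16.9%, 15.1% and 32.3% by −log10 q (lacking H3K9la lactate, H4K8la lactate and H4K8la control). By fold it was 29.5%, 9.73%, 16.2%, 13.3% and 31.1% (lacking H3K9la lactate, H4K8la lactate, H4K8la control, H4K16la lactate and H4K16la control). By summit pileup over background it was 18.3%, 20.9%, 3.62%, 16.2% and 67.5% (lacking H3K9la lactate, H3K9la control, H4K8la lactate, H4K8la control and H4K16la control). From the region centre, 11.4%, 17.2%, 10.0%, 18.1%, 13.5% and 10.5% had a peak of the missing list within 5 kb. By fold, 2 differences between classes changed sign, to 0.008 for H4K16la (lacking H4K8la) and 0.003 for H4K8la (lacking H4K16la). The cause of the other changes was not tested. No paired analysis was possible because each group has 1 library, and for the same reason no replicate could be left out. At the median member a pileup of up to 9 to 13 would have stayed uncalled, and the part of depth in the missing calls was not tested.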

Other observations

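Of 126 combinations of chromosome and library, 19 had an interval that left out the share elsewhere, 13 above it and 6 below. Those given here were picked after their values were seen, and no test was made. On chromosome 9, H4K8la lactate was lacking at 101 of the 389 regions where all 5 other lists had a peak (26.0%, 21.9 to 30.5), against 17.7% elsewhere, and these were 34.7% of the members there. The H4K8la lactate list had 4.21% of its peaks on chromosome 9, against 4.39% of the H4K8la control list. On chromosome 19, H4K8la control was lacking at 3 of 219 such regions (1.37%, 0.467 to 3.95), against 5.60% elsewhere. Chromosome 14 gave 24.1% (19.8 to 29.0) for H4K8la lactate, against 17.8% elsewhere, chromosome 18 gave 18.6% (14.1 to 24.1) for H4K16la lactate, against 12.4%, and chromosome 13 gave 9.45% (6.53 to 13.5) for H3K9la control, against 5.75%. On the X chromosome, H3K9la lactate was lacking at 23 of 88 (26.1%, 18.1 to 36.2), against 16.6% elsewhere, and H4K8la control at 10 of 75 (13.3%, 7.41 to 22.8), against 5.40%.

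Lists cut to strong peaks and full lists ranked the libraries differently. When only peaks with a −log10 q of at least 10 were merged, H3K9la lactate was lacking at 151 of 317 members, H4K8la lactate at 64 and H4K16la lactate at 25, against 36, 15 and 26 for the controls. The H3K9la lactate library thus held 47.6% of the classes at that threshold and 22.4% among all members. A peak of a list is called missing there when it was called below that threshold as well. In the full lists, where the other 5 lists all reached 10, H3K9la lactate lacked a peak at 2 of 384 regions (0.521%). The part in this ranking of how many peaks each list holds above the threshold was not tested.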
